A study of Mus musculus with 2 samples.

Results

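CpGs measured in mouse embryonic fibroblasts (MEFs) were binned into 1 kb tiles, and autosomal tiles of intermediate methylation in Dnmt1+/+ MEFs were selected. A tile was kept when it held at least 8 CpGs and at least 75% of them read 30 to 70% in the Dnmt1+/+ library. The rule gave 167 tiles of 44691 autosomal tiles with at least 8 CpGs (0.374%). It read only the Dnmt1+/+ values, so the Dnmt1+/+ levels below describe the selection, and the Dnmt1-/- levels were not used by it. The cells were cultured untreated MEFs of 2 genotypes with 1 library each, Dnmt1+/+ and Dnmt1-/-. Both lines also lacked trp53. The allele written as Dnmt1-/- is a homozygous hypomorph, not a complete null, and whether each line was derived from 1 embryo or 1 clone was not given in the sources used here. Only DNA methylation was analysed, so the fibroblast label was not checked against marker expression.

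Dnmt1 is the methyltransferase that copies CpG methylation onto the newly made strand after replication. A CpG that reads near the middle of the scale in a population can be methylated on the copy from a single parent in every cell, as at imprinted loci, or in a part of the cells on either copy. At imprinted genes the mark that tells the parental copies apart is set in the germ line at a control region and then kept in somatic cells. Some imprinted promoters gain a further, secondary mark on a single parental copy after fertilisation. The percent at a CpG does not tell these states apart, because the table does not pair calls with parental copies.

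Windows of 160 bases from 7 of the regions described below show the CpGs whose values carry the comparison. Trappc9 and Igfbp6 are shown because methylation was near 0 in Dnmt1-/- MEFs, Gnas/Nespas and Blcap/Nnat because it was partly kept, and Igf2r/Airn, Nr2f1 and Atg7 because it was kept or was higher at part or all of the CpGs. Capitals mark measured CpGs outside the enzyme sites CCGG and TCGA, and CpGs in lower case lay in such a site or were not measured. Sequences are the plus strand of NCBIM37, 5′ to 3′.
Trappc9: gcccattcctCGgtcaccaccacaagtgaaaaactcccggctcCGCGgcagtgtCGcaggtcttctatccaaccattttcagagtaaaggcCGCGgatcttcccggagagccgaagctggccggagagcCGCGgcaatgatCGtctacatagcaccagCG
Igfbp6: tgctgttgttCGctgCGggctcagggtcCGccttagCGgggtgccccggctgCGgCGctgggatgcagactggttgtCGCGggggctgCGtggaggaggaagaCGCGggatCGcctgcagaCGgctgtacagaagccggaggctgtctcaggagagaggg
Gnas/Nespas: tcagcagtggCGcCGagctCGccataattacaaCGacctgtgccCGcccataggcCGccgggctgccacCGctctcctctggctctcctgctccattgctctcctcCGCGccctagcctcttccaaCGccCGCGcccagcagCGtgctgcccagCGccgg
Blcap/Nnat: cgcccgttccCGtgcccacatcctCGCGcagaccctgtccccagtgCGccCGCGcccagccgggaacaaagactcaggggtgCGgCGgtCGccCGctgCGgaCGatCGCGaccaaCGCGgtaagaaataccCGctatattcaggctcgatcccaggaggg
Igf2r/Airn: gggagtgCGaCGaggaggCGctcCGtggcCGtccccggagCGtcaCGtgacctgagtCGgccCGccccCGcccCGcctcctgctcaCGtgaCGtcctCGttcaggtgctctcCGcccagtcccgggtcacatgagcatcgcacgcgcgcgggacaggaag
Nr2f1: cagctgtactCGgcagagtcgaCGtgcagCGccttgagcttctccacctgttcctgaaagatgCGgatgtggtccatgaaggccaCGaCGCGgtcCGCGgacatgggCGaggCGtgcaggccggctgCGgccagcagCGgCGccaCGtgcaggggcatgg
Atg7: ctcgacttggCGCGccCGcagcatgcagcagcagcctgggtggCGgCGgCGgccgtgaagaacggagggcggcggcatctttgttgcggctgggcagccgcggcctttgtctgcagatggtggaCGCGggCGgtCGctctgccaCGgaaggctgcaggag

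The Trappc9 window covered chr15:72640093-72640252, where 10 capital CpGs read 31.5 to 44.4% in Dnmt1+/+ and 0 to 3.75% in Dnmt1-/-. In the Igfbp6 window (chr15:101975025-101975184), 13 CpGs read 17.0 to 58.2% and 0 to 3.09%. The 14 CpGs of the Gnas/Nespas window (chr2:174110195-174110354) read 45.5 to 59.2% and 14.3 to 39.7%. These 3 windows held no capital CpG whose Dnmt1-/- value reached the lowest Dnmt1+/+ value of the capital CpGs in the same window. In the Blcap/Nnat window (chr2:157386153-157386312) the ranges overlapped, at 37.2 to 47.4% and 6.50 to 54.1% over 17 CpGs. The Igf2r/Airn window (chr17:12962531-12962690) spread most in Dnmt1-/-, from 5.15 to 90.9% over 15 CpGs that read 29.5 to 55.7% in Dnmt1+/+. In the Nr2f1 window (chr13:78334452-78334611), 15 CpGs read 37.7 to 64.3% and 31.0 to 87.9%. In the Atg7 window (chr6:114688435-114688594), 11 CpGs read 30.2 to 72.1% and 56.4 to 87.3%.

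Reduced-representation bisulfite sequencing (RRBS) reads CpGs near restriction sites, and CpGs inside a CCGG or TCGA site read differently from their neighbours. In tiles at 20% or less in Dnmt1+/+, such site CpGs still read 53.2% in Dnmt1+/+ and 52.2% in Dnmt1-/-. A tile rich in site CpGs could therefore meet the rule without intermediate methylation elsewhere, and the 167 tiles were split by their CpGs outside these sites, called other CpGs. In 137 tiles at least 5 other CpGs were measured and at least 75% of them read 30 to 70% in Dnmt1+/+, and these are called supported tiles. In 10 tiles at least 5 other CpGs were measured but fewer than 75% of them were in range, and in 20 tiles fewer than 5 were measured. At the edge of the rule, 51 tiles lay exactly at the 75% share, with a median Dnmt1+/+ level of 55.6% over all CpGs. Another 85 tiles lay just outside, at 70 to under 75%, with a median of 50.9%. Supported tiles held 1729 CpGs, of which 1269 were other CpGs, and the median depth of a tile ranged from 10 to 187 calls in Dnmt1+/+ and from 10 to 156 in Dnmt1-/-, with medians of 38 and 36. Levels below are means over other CpGs unless stated.

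Methylation in Dnmt1-/- MEFs spread over nearly the whole scale in tiles that had been selected for a narrow range in Dnmt1+/+. The 137 supported tiles ranged from 31.1 to 65.0% in Dnmt1+/+, with a median of 46.9%. In Dnmt1-/- they ranged from 0 to 82.1%, and the median was 13.9%, between quartiles of 5.50 and 39.1%. At 10% or less stood 53 tiles (38.7%), between 10 and 30% stood 37 (27.0%), and above 30% stood 47 (34.3%). Of the 137 tiles, 105 were lower in Dnmt1-/- by at least 10 percentage points, 23 lay within 10 points and 9 were higher by at least 10 points. The 10 tiles that other CpGs went against had medians of 41.4% in Dnmt1+/+ and 8.14% in Dnmt1-/-, and the 20 with too few had 41.3% and 5.28%. Of those 10, the 3 with the most other CpGs lay at Rxra, the gene of a retinoid receptor (25.4% and 1.43% over 7 CpGs), at Tmc8 (54.5% and 18.8% over 6) and near Tbx1 (60.3% and 52.9% over 6).

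**Figure D1:**
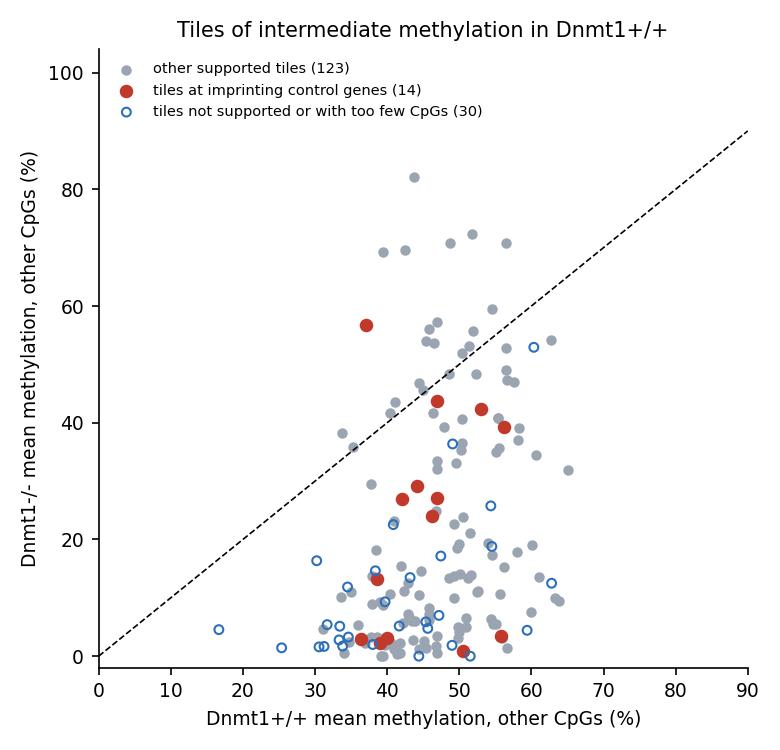
Mean methylation of other CpGs per tile in Dnmt1+/+ (horizontal axis, percent) against Dnmt1-/- (vertical axis, percent), with filled red points for supported tiles near imprinting control genes, filled grey points for other supported tiles and open blue points for tiles without support or with too few other CpGs. Red and grey points together span 31.1 to 65.0% across and 0 to 82.1% upward, and points on the dashed diagonal have the same level in both libraries.

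Tiles with high methylation in Dnmt1+/+ were distributed differently. Among 14963 autosomal tiles at 80% or more in Dnmt1+/+, 12.3% were at 10% or less in Dnmt1-/-, 33.6% between 10 and 30%, and 54.1% above 30%, with a median of 32.9%. As a share of the Dnmt1+/+ level, the Dnmt1-/- level of supported tiles had its median at 30.6% and its quartiles at 11.8 and 73.8%. In the highly methylated tiles the median was 35.6% and the quartiles were 19.8 and 53.7%. The medians were near each other, and the quartiles of the supported tiles lay further apart. The share divides by the Dnmt1+/+ level on which both sets were selected, so nothing was read from this difference. These are values of 1 library per genotype without a test, since no genotype had a second library.

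**Figure D2:**
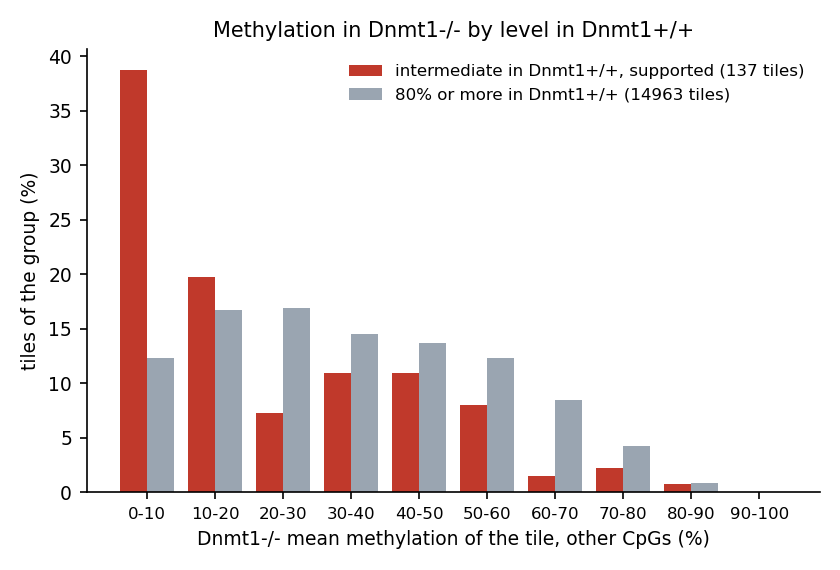
Share of tiles (vertical axis, percent) by Dnmt1-/- methylation of other CpGs (horizontal axis, percent) in supported tiles and in tiles at 80% or more in Dnmt1+/+. The lowest levels hold a larger share of the supported tiles, of which 38.7% stood at 10% or less against 12.3%.

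The spread among CpGs of one tile was also compared. The SD over the other CpGs of a tile had a median of 12.6 percentage points in Dnmt1+/+ and 9.29 in Dnmt1-/-. In Dnmt1-/- this SD was 3.21 in tiles at 10% or less, 9.47 between 10 and 30%, and 17.1 above 30%, and a level near 0 in itself limits the SD. The Dnmt1+/+ SDs are limited by the rule, so the libraries were not compared in this measure. The same tiles had Dnmt1+/+ SDs of 10.8, 14.9 and 12.3. Site CpGs stood far above other CpGs in the lowest tiles: they read 52.1% in Dnmt1-/- over 176 CpGs where the 447 other CpGs read 3.84%. In Dnmt1+/+ the same site CpGs read 68.4% and the other CpGs 45.2%. Averaging all CpGs therefore gave the supported tiles a Dnmt1-/- median of 29.0% in place of 13.9%.

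The calls at each CpG were compared between the libraries (Fisher's exact test, two-sided, p adjusted over the whole table by Benjamini-Hochberg). Only 2 libraries are compared in this way, not genotypes, and reads copied by PCR are not independent molecules. Of 1269 other CpGs in supported tiles, 624 (49.2%) were called lower in Dnmt1-/-, where the share over all other CpGs of the table was 44.2%. Another 64 (5.04%) were called higher, where the share was 0.635%, and 581 (45.8%) were not called. Over all CpGs of the supported tiles 698 were called lower and 72 higher, with shares over the whole table of 43.7% and 0.462%. Because the tiles were selected on one side of this contrast, nothing was read from these counts. Every other CpG was called lower in 35 tiles, none was called in 16, and at least 1 was called higher in 12.

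Imprinted genes lay near a part of the tiles. Within 5 kb of a gene of a list of 93 imprinted genes, of which 85 had an annotated symbol, lay 15 of 137 supported tiles (10.9%) and 190 of 44691 tiles (0.425%). Under stricter rules the share of supported tiles was 22.6% with at least 12 CpGs, 25% with a 90% share and 28.6% with a range of 40 to 60%, on 53, 8 and 7 tiles. Those 15 tiles were spread over the Dnmt1-/- levels, with 5 at 10% or less, 6 between 10 and 30% and 4 above 30%. A tile at Cdkn1c, a maternally expressed inhibitor of cyclin-dependent kinases, met the rule but had no support from its other CpGs, which averaged 54.4% in Dnmt1+/+ and 25.8% in Dnmt1-/-. A tile at Asb4 read 42.8% and 12.5% over 5 other CpGs. The other 14 supported tiles lay near genes with a germline control region and formed 10 regions, which are taken in turn.

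In 5 of the 10 regions Dnmt1-/- MEFs had nearly no methylation. At Plagl1, a paternally expressed zinc finger gene with a role in growth, chr10:12810001-12811000 read 50.4% ± 9.69 (SD over 32 CpGs) in Dnmt1+/+ and 0.899% ± 1.78 in Dnmt1-/-. All 32 were called lower, and the 95% Wilson intervals of the pooled calls were 48.2 to 51.9% and 0.395 to 1.01%. Such intervals count a read again at each CpG it covers and are therefore too narrow. At Grb10, an adaptor of growth factor receptors that restrains growth, chr11:11926001-11927000 read 55.8% ± 9.30 and 3.49% ± 5.04 over 24 CpGs, all called lower. The tile in an intron of Trappc9, the gene that hosts the noncoding Peg13, lay at chr15:72640001-72641000 and read 40.05% ± 4.85 and 3.16% ± 2.20, with 26 of 26 CpGs called lower.

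The other two low regions held fewer CpGs. At Impact, a regulator of the stress response of translation, chr18:13131001-13132000 read 39.0% ± 1.70 in Dnmt1+/+ and 2.21% ± 1.71 in Dnmt1-/-, and all 17 CpGs were called lower. The Dnmt1+/+ values of these 17 CpGs ran only from 35.3 to 42.9%. Between Peg10, a retrotransposon-derived gene needed in the placenta, and Sgce, a sarcoglycan gene, chr6:4697001-4698000 read 36.4% ± 5.07 and 2.97% ± 3.95 over 8 CpGs, of which 7 were called lower. In these 5 regions the highest CpG outside the enzyme sites in Dnmt1-/- stood at 25%, in the Grb10 tile.

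Part of the methylation remained in 2 regions on chromosome 2. At Gnas, which encodes the stimulatory G protein alpha subunit, chr2:174153001-174154000 read 38.5% ± 7.94 in Dnmt1+/+ and 13.2% ± 6.49 in Dnmt1-/-, with 12 of 18 CpGs called lower. At H13, whose intron holds the paternally expressed retrogene Mcts2, chr2:152512001-152514000 read 44.5% ± 3.63 and 28.3% ± 9.27 over 30 CpGs. Of these 30 CpGs 2 were called lower and 28 were not called.

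At 3 regions Dnmt1-/- MEFs stood above 30%. Around Nnat, a paternally expressed gene for a small membrane proteolipid that lies within Blcap, chr2:157385001-157387000 read 43.9% ± 4.37 and 33.2% ± 17.3 over 32 CpGs, with 12 called lower. Its 2 tiles differed in Dnmt1-/-, at 43.6% in the first and 26.9% in the second, and stood at 46.9% and 42.0% in Dnmt1+/+. At Gnas/Nespas, chr2:174109001-174112000, the 3 tiles read 47.0, 56.2 and 53.0% in Dnmt1+/+ and 27.0, 39.3 and 42.4% in Dnmt1-/-. Over its 76 CpGs the means were 53.6% ± 9.50 and 38.8% ± 16.2, with 21 called lower and none called higher. The Nesp promoter in this locus is a known site of secondary methylation on the paternal copy. The Gnas tile described above stood below all 3 Gnas/Nespas tiles in Dnmt1-/-, and that difference was not tested.

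The tile that holds the start of Igf2r was higher in Dnmt1-/- than in Dnmt1+/+. Igf2r encodes the receptor that clears insulin-like growth factor 2 and is expressed from the maternal copy, and its promoter is known to gain methylation on the paternal copy after fertilisation. At chr17:12962001-12963000 the 57 other CpGs read 37.0% ± 7.50 in Dnmt1+/+ and 56.7% ± 21.1 in Dnmt1-/-, with pooled intervals, too narrow for the same reason, of 35.6 to 38.9% and 52.5 to 55.8%. Of them 26 were called higher, 6 lower and 25 were not called, so that this tile gave 26 of the 64 CpGs called higher. The CpGs ran from 18.8 to 55.7% in Dnmt1+/+, where the rule limits the spread, and from 5.15 to 93.0% in Dnmt1-/-. The lowest Dnmt1-/- values lay side by side: the CpGs 193 to 209 bases from the centre read 10.1, 5.15, 18.2 and 13.3%, while the CpG at 76 bases read 93.0% and the CpG at 248 bases 90.9%. These CpGs share reads and are not independent.

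**Figure D3:**
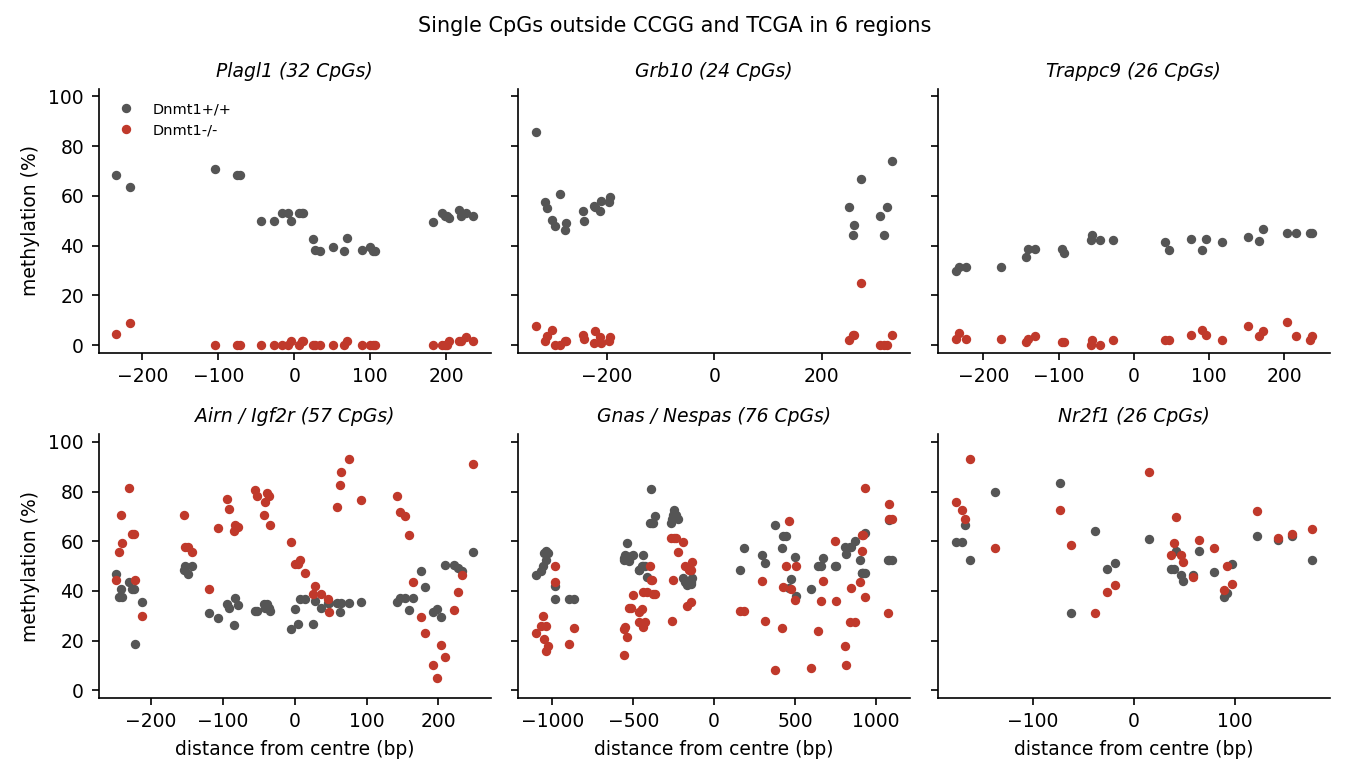
Methylation of each other CpG (vertical axis, percent) by distance from the centre of the measured CpGs (horizontal axis, bases) in Dnmt1+/+ and Dnmt1-/- at Plagl1, Grb10, Trappc9, Airn/Igf2r, Gnas/Nespas and Nr2f1. The 2 libraries lie apart along Plagl1, Grb10 and Trappc9, and at Airn/Igf2r the Dnmt1-/- points run from 5.15 to 93.0%.

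The germline control region of the same locus, at the Airn promoter inside Igf2r, missed the rule by its site CpGs. At chr17:12935001-12936000 only 64.7% of all CpGs were in range, where 90% of the 10 other CpGs were. These read 59.3% in Dnmt1+/+ and 1.27% in Dnmt1-/-, with pooled intervals of 55.8 to 66.1% and 0.776 to 3.26%. Another 3 tiles at control genes were alike in missing the rule and having other CpGs in range: Zrsr1/Commd1 read 43.6% and 4.98% over 27 CpGs, Inpp5f 46.0% and 1.74% over 5, and Nap1l5/Herc3 55.7% and 20.3% over 9. At further control genes too few of the other CpGs were in range, among them H19 (32.5% and 1.20% over 7 CpGs), Mest (68.2% and 30.5% over 6) and Dlk1 (68.5% and 45.7% over 12). Cdh15 read 63.6% and 45.0% over 7. Others stood at the ends of the scale in Dnmt1+/+: Slc38a4 read 96.9% and 48.9%, Gpr1 96.2% and 58.0%, Rasgrf1 19.6% and 3.89%, and Zdbf2 9.36% and 4.0%. No tile with 8 CpGs lay near Peg3 or Usp29, and the tiles at Snrpn and Meg3 had fewer than 5 other CpGs.

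**Figure D4:**
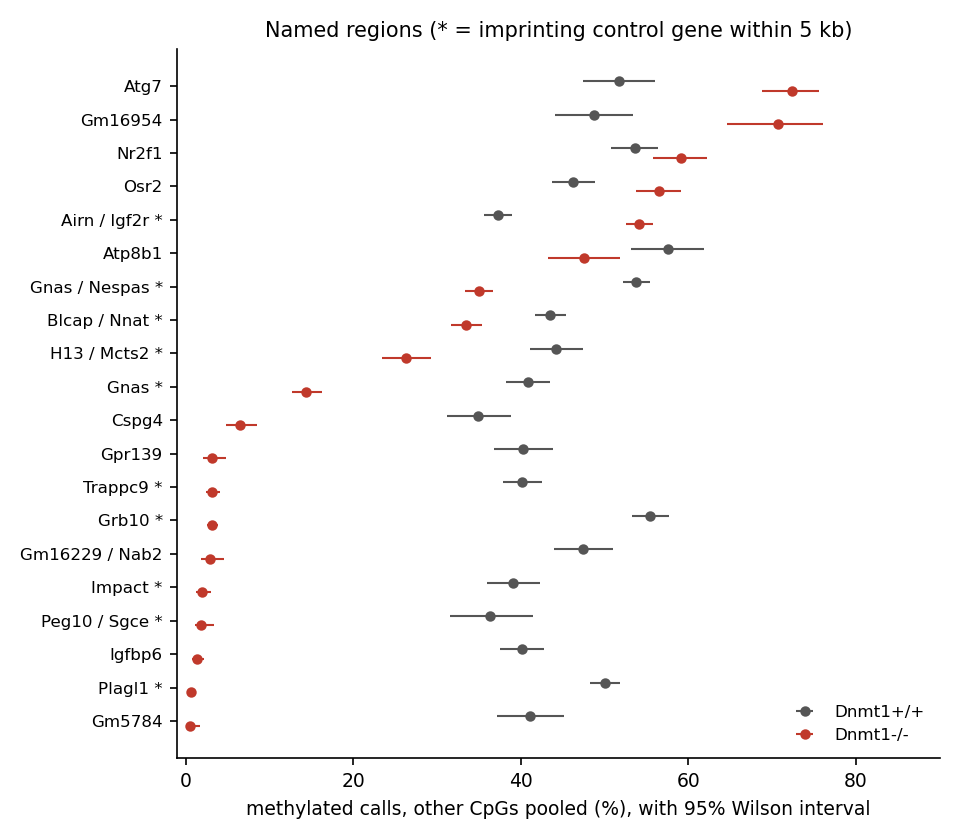
Pooled methylation of other CpGs (percent, with 95% Wilson intervals for counting error that are too narrow because CpGs share reads) of each named region in Dnmt1+/+ and Dnmt1-/-, with an asterisk for regions near imprinting control genes. Dnmt1+/+ values sit near the middle of the scale by selection, and Dnmt1-/- values run from 0.485% at Gm5784 to 72.3% at Atg7.

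Regions away from the control genes ran from nearly no methylation in Dnmt1-/- to levels above those of the regions near control genes. Among those with at least 10 other CpGs, the 5 lowest and the 5 highest in Dnmt1-/- are described. Lowest was a tile at the predicted gene Gm5784, chr12:19394001-19395000, at 41.7% ± 14.5 and 0.585% ± 1.61 over 15 CpGs, of which 13 were called lower. At Igfbp6, which encodes a binding protein of insulin-like growth factors, chr15:101975001-101976000 read 41.0% ± 12.4 and 1.29% ± 0.972, with all 13 CpGs called lower. At Nab2, a corepressor of Egr transcription factors that overlaps Gm16229, chr10:127101001-127102000 read 43.5% ± 20.3 and 2.80% ± 2.77, with 8 of 10 called lower. In these 3 tiles no CpG outside the enzyme sites stood above 7.14% in Dnmt1-/-. Gpr139, an orphan receptor gene, read 37.8% ± 13.4 and 3.21% ± 3.21 at chr7:126327001-126328000, with 9 of 13 called lower. Cspg4, which encodes the NG2 proteoglycan, read 35.9% ± 8.33 and 5.29% ± 4.85 at chr9:56712001-56713000, with all 11 called lower.

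Of the regions with at least 10 other CpGs, Atg7 and Gm16954 had the highest Dnmt1-/- levels. In an intron of Atg7, which encodes an enzyme of autophagy, chr6:114688001-114689000 read 51.7% ± 13.7 in Dnmt1+/+ and 72.3% ± 11.6 in Dnmt1-/-, with 7 of 12 CpGs called higher and none lower. At Gm16954, chr18:5163001-5164000 read 48.7% ± 15.6 and 70.8% ± 12.8, and 1 of 10 CpGs was called higher. Most of these 10 CpGs were covered by 43 calls in Dnmt1+/+ and 24 in Dnmt1-/-. At Osr2, a zinc finger transcription factor of limb and palate development, chr15:35229001-35231000 read 48.1% ± 11.5 and 55.9% ± 15.4, with 5 of 29 called higher. At Nr2f1, which encodes the nuclear receptor COUP-TFI, chr13:78334001-78335000 read 54.5% ± 11.8 and 59.5% ± 14.8, with 2 of 26 called higher and 1 lower. At Atp8b1, a phospholipid flippase gene, chr18:64691001-64692000 read 56.5% ± 10.3 and 49.0% ± 9.48 with none of 11 called.

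Further tiles, chosen here after their values were seen and not as a gene group, are given one by one. Ebf1, a transcription factor of B cell and mesenchymal development, read 39.4% in Dnmt1+/+ and 69.3% in Dnmt1-/-, with 5 of 8 CpGs called higher and none lower. Fbxl8, an F-box protein gene, read 42.5% and 69.6% with 7 of 8 called higher, and Sstr4, a somatostatin receptor gene, 56.4% and 70.7% with 2 of 7 called higher. The highest level of all supported tiles, 82.1% in Dnmt1-/- against 43.8% in Dnmt1+/+, came from a tile at chr12:34652001-34653000 with 6 other CpGs, of which 5 were called higher. Prdm1, the gene of a transcriptional repressor, read 45.5% ± 16.9 and 54.0% ± 32.2 over 8 CpGs, with 3 called higher and 1 lower, and its Dnmt1-/- CpGs ran from 4.76 to 92.0%. As the tiles were picked for these values, the calls are a description of them.

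Other tiles kept a part of their methylation or nearly none. Gata3 read 50.4% and 40.6%, Mecom 55.4% and 40.9%, and Cdkn2a, the locus of the cell cycle inhibitor p16, 55.3% and 40.8%, and each of the 3 had 1 CpG called lower and none higher. Lmx1b read 45.2% and 2.64%, Tcfap2b 59.9% and 7.64%, Fgf3 46.9% and 3.41%, and Ebf2 63.3% and 9.96%, with every other CpG of these 4 tiles called lower. The lowest value, 0%, was read at Alox12e and at Tox2, from 39.4% and 39.2% in Dnmt1+/+.

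Homeobox genes were taken by a list of symbol stems that leaves out some members, such as Lmx1b above. Its Pax stem also takes in genes without a homeobox, such as the paired box gene Pax1. Genes of these stems held 5 supported tiles (3.65%), where their share among all tiles with at least 8 CpGs was 1.08%. Hoxa2 read 44.4% in Dnmt1+/+ and 46.8% in Dnmt1-/-, and Pax1 33.8% and 38.3%, so both stood within 10 percentage points in the 2 libraries. Emx2 read 38.4% and 18.2%, and Hoxa7 45.8% and 8.33%, and both were lower in Dnmt1-/-. No supported tile lay at a protocadherin, zinc finger (by the symbols Zfp and Zscan), Fox, olfactory receptor or listed germline gene, and nothing is read from this, since their shares of all tiles were only 0.136, 1.45, 0.336, 0.0694 and 0.0559%.

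The supported tiles resembled all tiles with at least 8 CpGs in position and in median composition. Promoters, taken as within 1 kb of an annotated start, held 63 (46.0%), exons 25 (18.2%), introns 17 (12.4%) and intergenic sequence 32 (23.4%), where the shares of all such tiles were 49.2, 15.7, 11.8 and 23.3%. Tiles at 80% or more in Dnmt1+/+ lay in promoters at 15.2% and tiles at 20% or less at 86.8%. Median Dnmt1-/- levels of supported tiles were 14.1% in promoters, 13.7% in exons, 13.9% in introns and 14.5% between genes. Median GC content was 53.3% against 53.7% for all tiles, and the observed to expected ratio of CpGs was 0.480 against 0.482. Quartiles of GC content were 47.8 and 56.3% against 49 and 58.8%. Those of the ratio were 0.383 and 0.570 against 0.355 and 0.674. The motif TGCCGC, which the imprint-keeping factor ZFP57 binds when methylated, occurred on either strand in 44 tiles (32.1%), where the share of all tiles was 31.9%. At least 3 copies stood in 8 tiles (5.84%), where the share was 2.77%. Of these 8, 7 were among the 14 tiles at imprinting control genes (Plagl1, Grb10, Trappc9, Impact, H13/Mcts2 and both Blcap/Nnat tiles), and 1 of the other 123 tiles, at Atg7, held as many. Among all tiles with at least 8 CpGs, those copies stood in 14 of 76 tiles at control genes (18.4%) and in 1223 of 44615 others (2.74%), and no test was made of these shares.

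In the 24 supported tiles with measured other CpGs within 2 kb on both sides, the surroundings mostly stayed off the high end in Dnmt1+/+. In 11 of them both flanks lay between 20 and 80%, and in 11 a flank between these levels faced a flank at 20% or less. A flank at 80% or more occurred in 2. In part of the 11, as at Blcap/Nnat, Gnas/Nespas and Osr2, a flank was itself a supported tile, so that the count partly restates the selection. Where a single flank was measured, it stood at 80% or more in 12 tiles, between 20 and 80% in 31 and at 20% or less in 22. By chromosome, the share of tiles that were supported was highest on chromosome 2, with 21 of 3560 (0.590%). Of these 21 tiles, 8 lay in the 4 regions near control genes described there. The lowest share was on chromosome 17, with 2 of 2296 (0.0871%).

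Reading the same rule on the Dnmt1-/- values gave 1210 tiles, 694 of them supported by other CpGs, and these were mostly other places. Their median Dnmt1+/+ level was 95%, and 585 of the 694 stood at 80% or more in Dnmt1+/+. The 2 supported sets shared 13 tiles, which were 9.49% of the Dnmt1+/+ set and 1.87% of the Dnmt1-/- set. Of all 44691 autosomal tiles with at least 8 CpGs, 137 were in the Dnmt1+/+ set and 694 in the Dnmt1-/- set. Both overlap shares were therefore above the share of all tiles, and no test was made of this. By mean level alone, 43 of the 137 supported tiles also stood within the level range of the rule in Dnmt1-/-.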

How the data were processed

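Per the labels, genomic DNA of Dnmt1+/+ and Dnmt1-/- MEFs was bisulfite converted and sequenced, 1 library per genotype. The submitters' processing notes name Bismark and the mm9 (NCBIM37) build. Versions and the conversion rate are not given in the sources used here. The deposited table, which the authors limited to CpGs with at least 10 calls in both libraries, holds 1790826 CpGs with a count of calls (depth) and a percent of methylated calls for each library. The Dnmt1+/+ library gave 74636195 calls and the Dnmt1-/- library 78401157, with median depths of 29 and 30. Where no call was methylated at such a depth, levels of up to 10.3% and 10% remain possible (3 calls).

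Methylated calls were recovered as percent times depth. CpGs were placed by GENCODE vM1, with coordinates 1-based. Members and gene lists were chosen with earlier results of these data known. Supported tiles within 2 kb of each other were joined into 131 regions. Named were all regions within 5 kb of a control gene, the 5 lowest and 5 highest others in Dnmt1-/- with at least 10 other CpGs, the 5 regions with the most other CpGs, and 3 tiles without support. The two-sided Fisher's exact test was run per CpG at an adjusted p of 0.05 and was tested on simulated data. Intervals are 95% Wilson intervals on pooled calls, cover counting error only, are too narrow where CpGs share reads and need not hold the mean over CpGs. The share of repeats in tiles, planned as a sequence feature, was not computed because the genome sequence was not soft-masked. The alternatives changed the depth, level range, share, CpGs read, tile frame and width, CpG minimum, weighting, threshold and distance to genes. Tests used scipy 1.17.1 and numba 0.67.0, tables pandas 2.3.3 and numpy 2.4.6, sequence pysam 0.24.0, and figures matplotlib 3.10.9, in Python 3.11.15. The result for 1 gene is not reported here, and the study's other data types were not analysed here.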

Additional observations from a re-analysis of the deposited data

How the results depend on the processing

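No paired analysis was possible because the design holds a lone library of either genotype, and for the same reason no library could be left out. The main values were 167 tiles, a median Dnmt1-/- level of 13.9% in the supported tiles, 624 of their 1269 other CpGs called lower and 15 supported tiles at imprinted genes. A range of 40 to 60% gave 7 tiles, 19.3%, 17 of 50 CpGs and 2 tiles. A share of 90% gave 10 tiles, 18.7%, 41 of 93 CpGs and 2 tiles. A minimum of 12 CpGs gave 54 tiles, 21.2% and 355 of 752 CpGs. Reading the rule on other CpGs alone gave 16.4% and 1038 of 2050 CpGs called lower. The level was 18.2% at a depth of at least 20, 12.6% with tiles shifted by 500 bp, and 29.0% over all CpGs of a tile. Pooling the calls of all supported tiles gave 24.0%, which replaces a median by a share of calls, and the plain mean of the tile levels was 22.6%. Tiles of 500 bp gave 27 at imprinted genes. The stricter rules left a smaller number of tiles, and the cause of the shifts was not tested. Every other count from an alternative run stayed within 1.5 times the main count, and no direction was reversed. The level was judged against the Wilson interval of the pooled calls, 23.6 to 24.3%, which is counting error and not the spread among tiles. By this narrow measure only the level with tiles of 500 bp, 13.9%, was unchanged. Depth limits what a single CpG can show: at Gm16954 1 of 10 CpGs was called, and most rested on 43 and 24 calls.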

Other observations

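The rule covered autosomes. On the X chromosome, 1 of 1048 tiles with at least 8 CpGs (0.0954%) met it, and this tile was supported by its other CpGs.

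Of the 1210 tiles that met the same rule on the Dnmt1-/- values, 694 were supported, and 18 of these stood at 20% or less in Dnmt1+/+. Over all 167 tiles, 15 met the rule in both libraries.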
